A study of Homo sapiens with 4 samples.

Results

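The TGF-beta pathway genes described here are the ligand genes *TGFB1*, *TGFB2*, *TGFB3* and *INHBA*, the receptor genes *TGFBR1*, *TGFBR2* and *TGFBR3*, and the signal transducer genes *SMAD3* and *SMAD7*. They are 9 of the 20090 protein-coding genes that GENCODE places on chromosomes 1 to 22 and X of hg19. For each gene, the promoter peaks are the H3K27ac peaks that overlap 1 kb either side of any annotated transcript start. Distal peaks are the other peaks within 50 kb of the gene body, and those that overlap 1 kb either side of a start of another protein-coding gene were counted apart. H3K27ac, the acetylation of lysine at the tail of histone H3, marks active promoters and enhancers.

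The mark was profiled by ChIP-seq, with 1 library per line, in 4 human cancer cell lines, of which DU-145 comes from prostate, COLO-205 from colon, and OVCAR-3 and SKOV-3 from ovary. The labels name no treatment, all lines were grown with serum in media that differed between them, RPMI being shared by COLO-205 and OVCAR-3, and each line is a single established culture, so a difference between libraries cannot be told apart from a difference between lines. No spread between replicates exists, no test was made, and the intervals below are exact Poisson 95% intervals of a tag count, which cover counting error only. The lists differ in depth and length, with 75468 peaks from 36000000 tags in DU-145, 76093 from 34200000 in OVCAR-3, 85576 from 29800000 in COLO-205 and 14001 from 22400000 in SKOV-3. The tag totals are estimates from the peak lists that assume a genome size and a fragment length, and the intervals do not cover their error. The weakest summit in a list held between 11 and 14 tags, and a gene without a peak is one at which no summit passed the q-value threshold of 0.001 at that depth.

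Of 5 colon markers fixed for the check of the labels, 3 had a promoter peak in COLO-205, while DU-145 and OVCAR-3 had 1 each and SKOV-3 had 0. *CDX2*, at a fold enrichment of 6.84, and *VIL1*, at 5.66, were marked in COLO-205 alone, *LGALS4* had 4.77 there and more in OVCAR-3, and *CDX1* and *CDH17* were marked in no list. Of 5 prostate markers, 2 had one in DU-145, as many as in OVCAR-3 and in COLO-205, and 0 had one in SKOV-3. *KLK3*, which encodes the prostate-specific antigen, was marked in COLO-205 and not in DU-145. The ovarian and Müllerian markers had a promoter peak in 5 of 5 cases in OVCAR-3, 4 in COLO-205, 3 in DU-145 and 1 in SKOV-3. The marker of SKOV-3 was *PAX8*, at 8.86, and it was marked in all 4 lists. The presence of a promoter peak thus does not set DU-145 apart as prostate or SKOV-3 as ovarian. COLO-205 had more ovarian than colon markers marked, but each of these ovarian markers was weaker there than in OVCAR-3. The fold enrichments were 4.66 against 31.3 for *PAX8*, 5.04 against 20.0 for *WT1*, 6.33 against 11.4 for *MSLN* and 4.09 against 34.9 for *EMX2*.

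TGF-beta ligands are secreted in a latent form and, once released, bind a complex of type II and type I serine/threonine kinase receptors. The activated type I receptor phosphorylates SMAD2 and SMAD3, which join SMAD4, enter the nucleus and act on target genes together with other transcription factors. SMAD7 is induced by the pathway and inhibits it at the receptor. In epithelial tumours the pathway is known both for growth arrest and, in advanced disease, for invasion and epithelial-mesenchymal transition.

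The distal regions around *SMAD3* and *SMAD7* carry the results that follow, and 5 of them were acetylated in all 4 lists. The sequences of 4 of these are shown because no distal region near the other genes was found in every list. The strongest distal peaks of *SMAD3* and *TGFBR3* are added because, gene by gene, they follow that of *SMAD7* in fold enrichment. Each window is plus strand sequence of hg19, reaches 100 bp to either side of the OVCAR-3 summit, lies outside annotated exons, and is printed 5′ to 3′ with motif matches in capitals. The motifs searched on both strands were TGANTCA for AP-1, GTCTAGAC for the SMAD palindrome, CAGACA for the SMAD-binding box, GGATGTGG or CACATTCC for TEAD, and CAGGTG for an E-box.
SMAD7, upstream, chr18:46478741-46478941: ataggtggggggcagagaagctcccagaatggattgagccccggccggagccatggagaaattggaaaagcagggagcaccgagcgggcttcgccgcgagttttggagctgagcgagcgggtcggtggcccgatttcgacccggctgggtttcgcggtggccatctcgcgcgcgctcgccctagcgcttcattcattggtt
SMAD7, upstream, chr18:46501925-46502125: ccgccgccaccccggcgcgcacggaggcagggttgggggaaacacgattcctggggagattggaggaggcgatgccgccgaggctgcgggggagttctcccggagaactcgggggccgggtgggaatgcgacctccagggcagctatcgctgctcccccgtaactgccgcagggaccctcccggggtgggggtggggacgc
SMAD3, intron, chr15:67398108-67398308: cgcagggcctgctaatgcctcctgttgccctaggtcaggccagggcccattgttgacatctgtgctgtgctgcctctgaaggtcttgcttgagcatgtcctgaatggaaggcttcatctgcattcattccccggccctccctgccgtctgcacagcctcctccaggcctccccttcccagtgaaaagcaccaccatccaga
SMAD3, intron, chr15:67399708-67399908: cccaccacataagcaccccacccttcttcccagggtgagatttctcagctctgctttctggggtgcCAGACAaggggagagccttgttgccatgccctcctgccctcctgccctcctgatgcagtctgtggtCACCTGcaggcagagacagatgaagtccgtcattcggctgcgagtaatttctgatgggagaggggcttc
SMAD3, intron, strongest, chr15:67441440-67441640: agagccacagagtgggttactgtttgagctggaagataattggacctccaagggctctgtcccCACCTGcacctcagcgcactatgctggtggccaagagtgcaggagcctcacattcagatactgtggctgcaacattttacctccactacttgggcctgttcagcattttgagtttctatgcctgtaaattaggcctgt
TGFBR3, intron, strongest, chr1:92197900-92198100: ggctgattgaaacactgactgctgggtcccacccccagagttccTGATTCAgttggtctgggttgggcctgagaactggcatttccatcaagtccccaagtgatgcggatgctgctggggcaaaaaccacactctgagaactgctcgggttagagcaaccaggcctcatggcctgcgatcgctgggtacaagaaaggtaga

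The window at chr15:67399708-67399908 holds a SMAD-binding box and an E-box, the window at chr15:67441440-67441640 holds an E-box, and the *TGFBR3* window holds an AP-1 match, while the other 3 hold none of these motifs. The *SMAD7* windows are rich in CpG, with 21 and 20 CpG dinucleotides against a median of 4.0 over the 55293 OVCAR-3 summit windows away from protein-coding starts. The *SMAD3* windows hold between 1 and 3. These matches are letters in a window and do not show that a factor binds there.

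Promoter peaks were found at 8 of the 9 genes in DU-145, 8 in OVCAR-3, 5 in COLO-205 and 4 in SKOV-3. Over all protein-coding genes the share with a promoter peak was 60.0% in DU-145, 60.7% in OVCAR-3, 51.3% in COLO-205 and 31.7% in SKOV-3. The receptor genes *TGFBR1* and *TGFBR2* and both SMAD genes were marked in all 4 lists, a pattern they share with 25.2% of all genes. The ligand genes were marked in DU-145 and, except for *TGFB1*, in OVCAR-3, and in neither COLO-205 nor SKOV-3. The pattern of *TGFB2*, *TGFB3* and *INHBA*, marked in DU-145 and OVCAR-3 alone, is that of 2010 of the 20090 genes. The 9 genes have a median of 7.0 distinct transcript starts against 5.0 over all protein-coding genes, and more starts make a wider searched window. At the MANE Select start alone, 7 genes were marked in DU-145, 7 in OVCAR-3, 5 in COLO-205 and 4 in SKOV-3. The part of the number of starts in these counts was not tested. With a −log10 q of at least 10, *TGFBR1* alone was marked in all 4 lists, as COLO-205 then lacked *SMAD7* and SKOV-3 lacked *TGFBR2* and *SMAD3*.

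**Figure D1:**
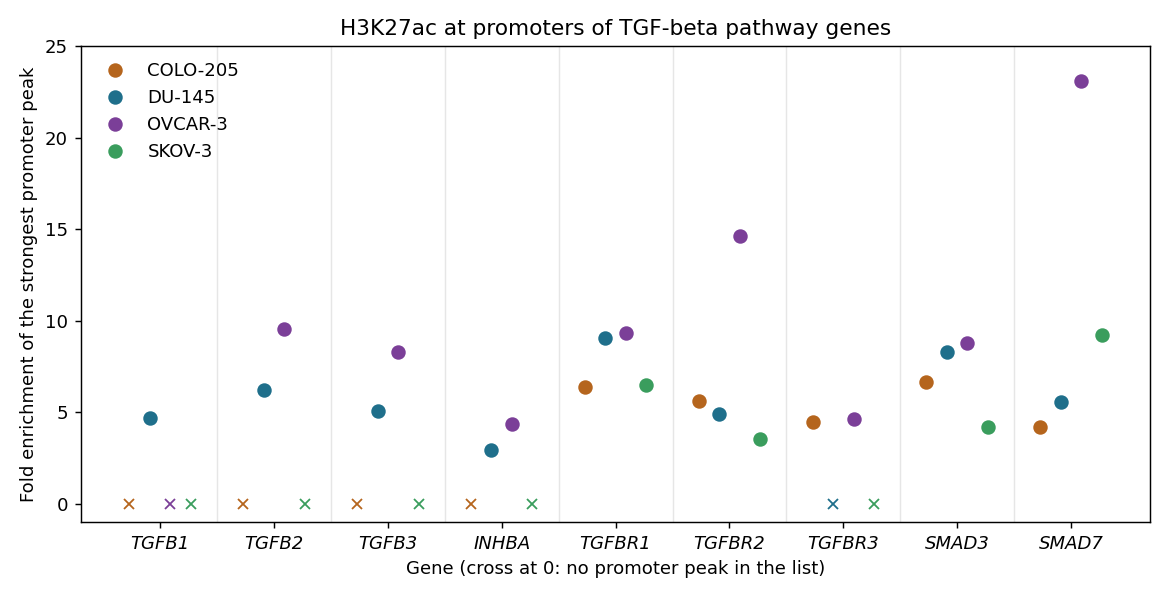
Fold enrichment over the local background of the strongest promoter peak of each gene, with 1 point per line and a cross at 0 where the list holds no promoter peak. The 4 ligand genes on the left have points for DU-145 and OVCAR-3 at most, and the highest points are those of OVCAR-3 at *SMAD7* (23.1) and *TGFBR2* (14.6).

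*TGFB1*, which encodes the most widely expressed TGF-beta ligand (chr19:41807492-41859827, minus strand), had promoter peaks in DU-145 and in no other list. The peak at the main start, that of the MANE Select transcript, was 1555 bp wide with a fold enrichment of 4.36 and a summit of 1.78 RPM (1.37 to 2.27), which stands for tags at the summit for every 1000000 tags of the library. A second peak, with its summit 1857 bp into the gene, reached 4.67, at percentile 47.7 of the marked promoters of DU-145. A promoter peak in DU-145 and no other list was found at 873 genes, or 4.35% of all.

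The region around *TGFB1* was also denser in DU-145. DU-145 had 15 distal peaks there, SKOV-3 had 0 and the other lists had 1 each. The DU-145 peaks had fold enrichments from 2.72 to 5.13 with a median of 3.86, against 4.59 over all DU-145 peaks away from protein-coding starts, and a median of 27 tags against 24. Of the 16 distal regions, 15 were found in 1 list, 14 of them in DU-145 alone. Over all regions away from protein-coding starts, 88.2% were found in 1 list. The distal peak of highest −log10 q lay 26264 bp into the gene and had 3.85. At the starts of neighbouring genes the number was 11 in DU-145, 5 in OVCAR-3, 3 in SKOV-3 and 2 in COLO-205, and a region at the start of *HNRNPUL1* and 1 other were marked in all 4 lists. Neighbours of *TGFB1* were thus marked at their starts in the lists in which *TGFB1* was not. In DU-145 the span held 18.4 peaks of any kind per 100 kb against 9.21 in the flanks up to 1 Mb away. Chromosome 19 held 2.29 times as many peaks per Mb as the median chromosome in DU-145, 3.72 times in OVCAR-3, 2.92 times in SKOV-3 and 1.19 times in COLO-205. The DU-145 peaks that lie less than 12.5 kb apart join over 79.7 kb, rank 431 of 20194 such clusters by bases under peaks, and reach across *B9D2*, *CCDC97*, *TMEM91* and *HNRNPUL1*, so they cannot be assigned to *TGFB1*.

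**Figure D2:**
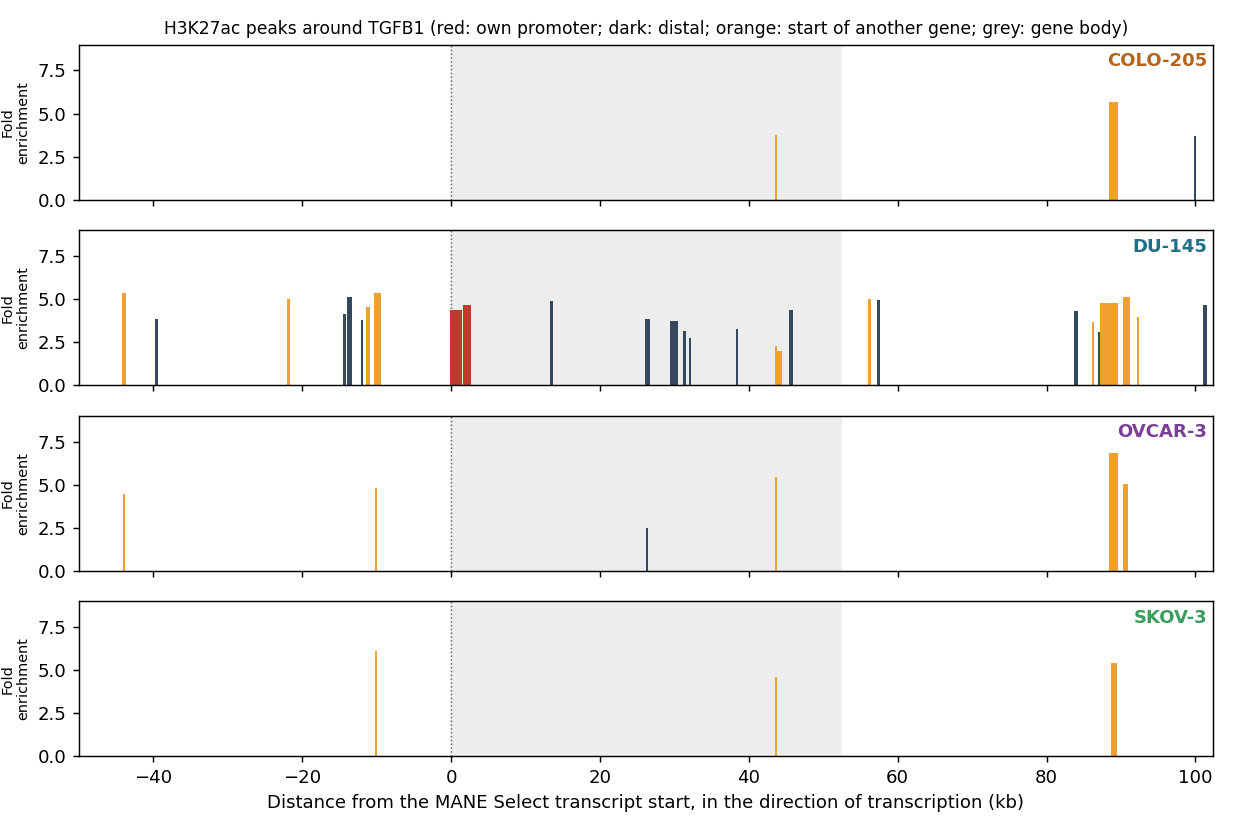
Peaks around *TGFB1* in the 4 lists, as fold enrichment against distance from the main start in kb in the direction of transcription. Red bars are its own promoter peaks, dark bars distal peaks and orange bars peaks at starts of other protein-coding genes. The red bars stand in the DU-145 panel alone, and orange bars stand in all 4 panels.

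*TGFB2* (chr1:218518678-218617961, plus strand) encodes a ligand that needs the co-receptor TGFBR3 for efficient binding to the type II receptor. Its strongest promoter peak, 1522 bp into the gene in DU-145 and 1588 bp in OVCAR-3, reached a fold enrichment of 6.2 and 9.53, with 2.06 RPM (1.61 to 2.58) and 2.63 RPM (2.12 to 3.23), and the lists of COLO-205 and SKOV-3 held no peak. These intervals overlap. The peak at the main start had 3.39 in DU-145 and 8.75 in OVCAR-3, with 1.86 RPM (1.44 to 2.36) and 2.92 RPM (2.38 to 3.56), which do not overlap. The median marked promoter held 1.89 RPM in DU-145 and 2.49 in OVCAR-3. By the strongest peak's percentile among the marked promoters of its own list the order turned, with DU-145 at 78.8 and OVCAR-3 at 67.7. DU-145 had 5 distal peaks, all in the gene body, and OVCAR-3 had 12, of which 9 were in the gene body and 3 downstream. COLO-205 had 1 distal peak and SKOV-3 0. The strongest, an intronic OVCAR-3 peak with its summit 32383 bp from the start, reached 9.93, and DU-145 had a peak of 6.03 at the same place. Of the 14 distal regions, 4 were found in more than 1 list and 10 in 1 list, where 88.2% of all regions away from protein-coding starts were in 1 list.

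*TGFB3* (chr14:76424440-76449354, minus strand) encodes the third TGF-beta isoform. Its promoter was marked at 5.05 in DU-145 and 8.28 in OVCAR-3, at percentiles 56.8 and 57.9. In RPM these peaks had the opposite order, with 1.67 (1.27 to 2.15) in DU-145 and 1.20 (0.86 to 1.63) in OVCAR-3, but another OVCAR-3 peak at the same start, with a fold enrichment of 7.25 and the highest −log10 q, held 2.13 (1.67 to 2.68). All these intervals overlap between neighbours in order. It had 2 distal peaks in DU-145, 2 in OVCAR-3, 1 in COLO-205 and 0 in SKOV-3, and none of its 5 distal regions was shared. Of all regions away from protein-coding starts, 88.2% were likewise in 1 list. The distal peak of highest −log10 q, in OVCAR-3, had 6.55 and lay 70819 bp downstream of the main start. The span of *TGFB3* held fewer peaks than its surroundings in every list. Per 100 kb it had 4.00 against 17.6 in the flanks in DU-145, 4.8 against 14.3 in OVCAR-3, 1.6 against 5.05 in COLO-205 and 0.801 against 1.68 in SKOV-3. Chromosome 14 of the DU-145 library held 4.38 times as many peaks per Mb as the median chromosome.

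*INHBA* (chr7:41706766-41745432, minus strand) encodes the subunit of activin A, a ligand that signals through SMAD2 and SMAD3. It had no peak at its main start in any list. Upstream starts were marked at 2.97 in DU-145 and 4.35 in OVCAR-3, which are percentiles 5.57 and 14.4 of marked promoters and the weakest promoter values in these lists among the 9 genes. With a −log10 q of at least 10 the DU-145 peak was lost, and among the 14001 strongest peaks of each list both were. The COLO-205 and SKOV-3 lists held no peak of any kind within 50 kb, and DU-145 had 1 distal peak, of 4.18, 55917 bp downstream of the main start. SKOV-3 had 65 peaks on the whole of chromosome 7, or 0.0836 times the median density.

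*TGFBR1* (chr9:101866320-101916474, plus strand), the type I receptor gene, had a promoter peak of 9.08 in DU-145, 9.32 in OVCAR-3, 6.4 in COLO-205 and 6.5 in SKOV-3. In the same order its summits held 2.50 (2.01 to 3.07), 2.22 (1.75 to 2.78), 1.58 (1.16 to 2.1) and 1.52 (1.05 to 2.12) RPM. The values of DU-145 and OVCAR-3 were the higher ones, but neighbours in this order have overlapping intervals. Within its own list the DU-145 peak was among the strong ones, at percentile 96.6, and the others were at 86.6 in COLO-205, 66.2 in OVCAR-3 and 73.6 in SKOV-3. Distal peaks were few, with 2 in COLO-205, 2 in DU-145 and 0 in OVCAR-3 and SKOV-3, and those of highest −log10 q, both in COLO-205 with the same values, had 5.95 and lay 24638 bp upstream of the main start and 28794 bp downstream of it.

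*TGFBR2* (chr3:30648093-30735634, plus strand), the type II receptor gene, had 1 promoter peak in each list. Its fold enrichment was 4.91 in DU-145, 14.6 in OVCAR-3, 5.64 in COLO-205 and 3.52 in SKOV-3. The OVCAR-3 promoter held 4.74 RPM (4.04 to 5.53), while COLO-205 had 1.95 (1.48 to 2.52), DU-145 had 1.83 (1.42 to 2.33) and SKOV-3 had 1.16 (0.758 to 1.70). OVCAR-3 stood above the others beyond counting error, and the other intervals overlap between neighbours in this order. The lists also differed in general, as the median marked promoter had a fold enrichment of 7.45 in OVCAR-3, 5.29 in SKOV-3, 4.77 in DU-145 and 4.52 in COLO-205. In the same order it held 2.49, 1.74, 1.89 and 1.44 RPM. Ranked in its own list, *TGFBR2* was at percentile 89.1 in OVCAR-3, 76.6 in COLO-205, 53.7 in DU-145 and 6.3 in SKOV-3. In OVCAR-3 chromosome 3 held 2.19 times as many peaks per Mb as the median chromosome, and its part in the value was not tested. OVCAR-3 had 4 distal peaks near *TGFBR2* and DU-145 2, none of them shared, and COLO-205 and SKOV-3 had 0. Of all regions away from protein-coding starts, 88.2% were in 1 list as well. The *TGFBR2* distal peak of highest −log10 q had 6.76 in OVCAR-3, 53141 bp into the gene.

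*TGFBR3* (chr1:92145900-92371892, minus strand) encodes betaglycan, the co-receptor that presents TGF-beta to the type II receptor and also binds inhibin. Its promoter was marked in COLO-205 and OVCAR-3, a pattern of 2.78% of genes. With a −log10 q of at least 10 the COLO-205 promoter was no longer marked, and among the 14001 strongest peaks of each list neither was. The main start had 2.81 in COLO-205 and 4.64 in OVCAR-3, and COLO-205 had a further peak of 4.47, supported by 15 tags, at a start 20115 bp upstream. Among marked promoters the strongest peak was at percentile 48.5 in COLO-205, by this further peak, and 17.9 in OVCAR-3. OVCAR-3 had 12 distal peaks, 7 in the gene body and 5 upstream, with a median fold enrichment of 6.01. Of these, 9 exceeded the promoter in fold enrichment, and 2 did so in tags at the summit. These 2, an intronic pair with summits 154847 and 153708 bp into the gene, reached 16.2 and 19.3, the latter being the window printed above. COLO-205 had 1 distal peak, which OVCAR-3 shared, and DU-145 and SKOV-3 had 0.

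*SMAD3* (chr15:67356101-67487511, plus strand) encodes the receptor-activated SMAD that binds DNA. At the main start its fold enrichment was 4.62 in DU-145, 8.74 in OVCAR-3, 4.58 in COLO-205 and 4.22 in SKOV-3, with 1.89 (1.47 to 2.39), 2.95 (2.41 to 3.59), 2.01 (1.54 to 2.59) and 1.43 (0.977 to 2.02) RPM in the same order. The interval of OVCAR-3 overlaps that of COLO-205 and lies just above that of DU-145, and the other neighbours overlap. The median marked promoter held 2.49 RPM in OVCAR-3 and 1.89 in DU-145. *SMAD3* has 18 annotated starts, most of them within the gene, and 19 peaks in DU-145, 10 in OVCAR-3, 8 in COLO-205 and 1 in SKOV-3 counted as promoter peaks. By fold enrichment the strongest lay at internal starts in all lists but SKOV-3, for example 60735 bp into the gene in DU-145, at 8.28. Among the marked promoters of its own list, this strongest peak was at percentile 94.2 in DU-145, 88.6 in COLO-205, 61.7 in OVCAR-3 and 21.0 in SKOV-3. In OVCAR-3 the internal one had 8.76 against 8.74 at the main start, and by −log10 q and tags the peak at the main start was the strongest in OVCAR-3 and COLO-205.

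At least 1 distal peak was found near 8 of the 9 genes in DU-145, 7 in OVCAR-3, 7 in COLO-205 and 2 in SKOV-3, where 63.6%, 59.4%, 73.8% and 21.9% of all protein-coding genes have one. The distal peaks numbered 107 in DU-145, 156 in OVCAR-3, 20 in COLO-205 and 17 in SKOV-3, and either *SMAD3* or *SMAD7* held most of them in each list. *SMAD3* accounted for 69.2% of those of DU-145, 60.0% of those of COLO-205 and 58.8% of those of SKOV-3, and *SMAD7* for 58.3% in OVCAR-3. Without these 2 genes the numbers were 27, 31, 6 and 0 in the order DU-145, OVCAR-3, COLO-205 and SKOV-3. With peaks less than 350 bp apart merged, the 9 genes had 68, 100, 20 and 15 in that order.

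**Figure D3:**
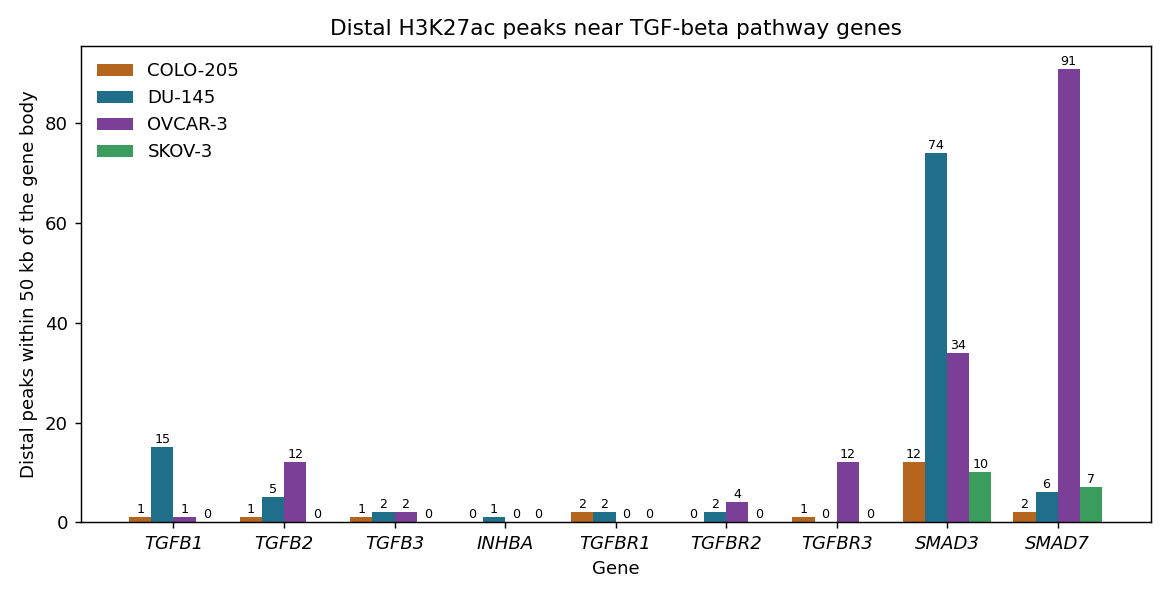
Number of distal peaks within 50 kb of the gene body for each gene, with 1 bar per line and the number above it. The tallest bars are *SMAD7* in OVCAR-3 (91) and *SMAD3* in DU-145 (74), and the SKOV-3 bars are above 0 at *SMAD3* and *SMAD7* alone.

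*SMAD3* had 74 distal peaks in DU-145, 34 in OVCAR-3, 12 in COLO-205 and 10 in SKOV-3. By number of distal peaks it ranked 79, 589, 2290 and 133 among the 20090 genes. Long spans favour a high rank by number, and by the share of the span under distal peaks it ranked 187, 1106, 4366 and 364. In DU-145, 64 of the 74 lay in the gene body and 10 upstream. These peaks covered 16.0% of the searched span, which held 40.2 peaks of any kind per 100 kb against 4.53 in the flanks, and chromosome 15 was at 1.0 times the median density. Under the distal peaks of *SMAD3* the median local background was 6.4 tags in DU-145, against 4.21 over all peaks of the list away from protein-coding starts. The median summit there held 32.0 tags against 24.0. The background was also higher in OVCAR-3, with 5.59 against 3.53, in SKOV-3, with 4.13 against 2.8, and in COLO-205, with 4.4 against 3.73. The DU-145 peaks joined over 128 kb, from 0.62 kb before to 127 kb after the main start, with 83 peaks over 47002 bp and rank 50 of 20194 clusters. No other protein-coding gene lies in this stretch.

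The *SMAD3* distal peaks also recurred between lists. Of 84 joined regions, 27 were found in more than 1 list and 57 in 1 list, 47 of them in DU-145 alone. Over the genome, 88.2% of regions away from protein-coding starts were in 1 list. All 8 regions of SKOV-3, which are 100% of its regions and 8 of the 73 of DU-145, were marked in DU-145 as well. DU-145 shared 23 regions with OVCAR-3, or 31.5% of its own and 76.7% of the 30 of OVCAR-3. Over all regions away from protein-coding starts, 38.2% of those of SKOV-3 were marked in DU-145, and the pair of DU-145 and OVCAR-3 shared 17.7% and 17.6%. The share of the span under DU-145 peaks, given above, was also high, and its part in this overlap was not tested. Of the 3 regions common to all lists, the pair shown above is intronic, with OVCAR-3 summits 40268 and 41868 bp from the main start. The region at 40268 bp had a fold enrichment of 7.78 in DU-145, 8.02 in OVCAR-3, 4.93 in COLO-205 and 7.12 in SKOV-3, and its summits in the 4 lists lay between 67398152 and 67398271 on chromosome 15. The region at 41868 bp had 5.94, 8.46, 5.56 and 5.09 in the same order. The strongest distal peak, 83600 bp into the gene, reached 13.2 in OVCAR-3, with peaks of 8.14 in DU-145 and 8.03 in SKOV-3 over the same place and none in COLO-205.

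**Figure D4:**
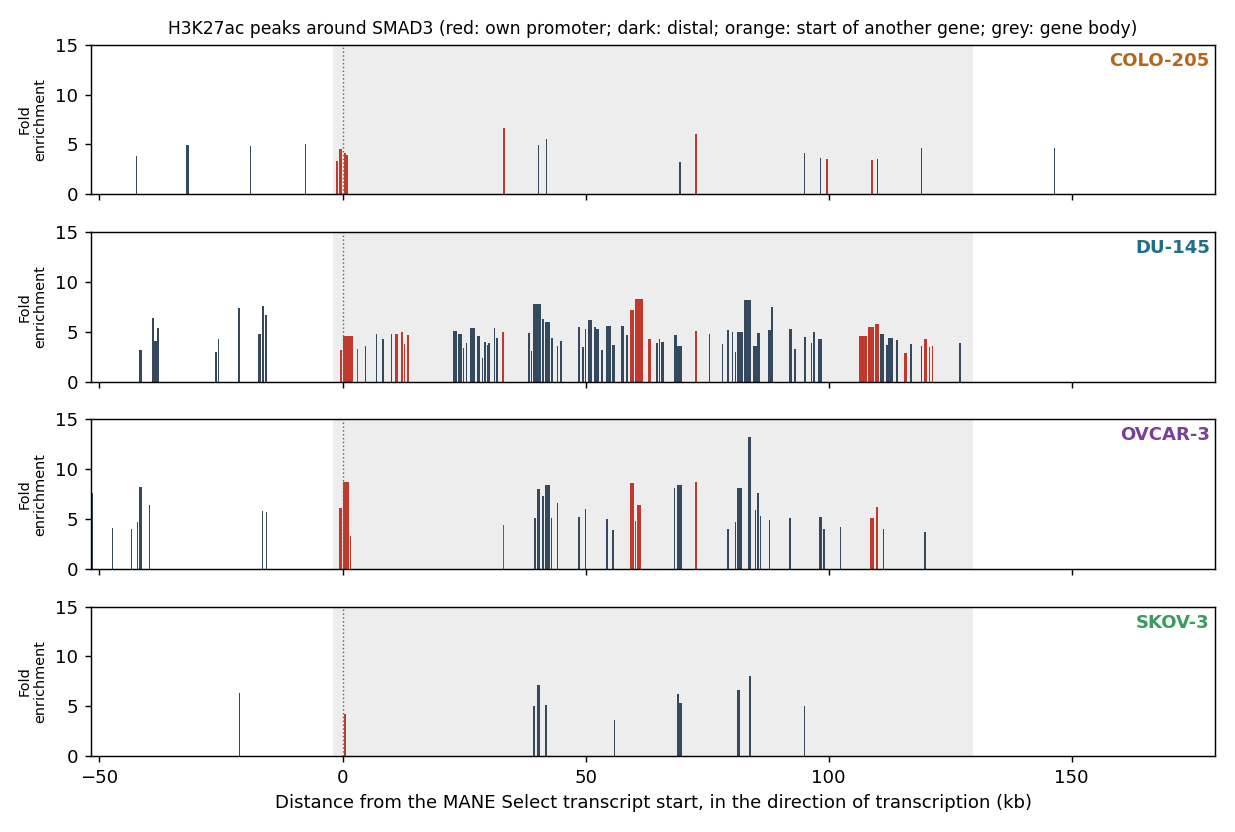
Peaks around *SMAD3* in the 4 lists, as fold enrichment against distance from the main start in kb. Red bars are peaks at any of its annotated starts, dark bars distal peaks, and the grey area is the gene body. The DU-145 panel is filled across the gene body, and all 8 distal regions of SKOV-3 and 23 of the 30 of OVCAR-3 have a counterpart there.

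*SMAD7* (chr18:46446223-46477335, minus strand), the inhibitory SMAD gene, had the highest promoter value of the 9 genes, in OVCAR-3. The fold enrichment was 5.59 in DU-145, 23.1 in OVCAR-3, 4.21 in COLO-205 and 9.2 in SKOV-3. In the same order the summits held 1.53 (1.15 to 1.99), 5.32 (4.58 to 6.15), 0.973 (0.652 to 1.40) and 2.1 (1.54 to 2.79) RPM. OVCAR-3 was above the others beyond counting error, and the intervals of DU-145 overlap those of both COLO-205 and SKOV-3. The percentile among marked promoters was 98.7 in OVCAR-3, 93.4 in SKOV-3, 68.9 in DU-145 and 39.8 in COLO-205. In COLO-205 the whole of chromosome 18 held few peaks, at 0.156 times the median density, and its part in the low value was not tested.

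The strongest distal peak of the 9 genes adjoins this promoter, with its OVCAR-3 summit 1506 bp upstream of the main start, and the window of 1 kb alone sets it apart from the promoter. It had a fold enrichment of 5.46 in DU-145, 26.4 in OVCAR-3, 4.26 in COLO-205 and 10.2 in SKOV-3, and its summits held 1.58 (1.20 to 2.05), 6.49 (5.67 to 7.40), 1.17 (0.818 to 1.63) and 2.54 (1.93 to 3.30) RPM. The order of the lines is that of the promoter peak. The other region found in all 4 lists lies 24690 bp upstream, where no gene is annotated, with 2.98, 16.5, 4.03 and 5.06 in the same order.

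Around *SMAD7* the lists differed more than at any other of the 9 genes in number, with 6 distal peaks in DU-145, 91 in OVCAR-3, 2 in COLO-205 and 7 in SKOV-3. The OVCAR-3 peaks lay on all sides, 19 in the gene body, 42 upstream and 30 downstream, and covered 32.3% of the span. By number the gene ranked 4670 in DU-145, 67 in OVCAR-3, 9198 in COLO-205 and 252 in SKOV-3, and by share of the span 4142, 111, 7160 and 196. Of the 91 joined regions, 85 were found in OVCAR-3 alone, and the 6 of SKOV-3, the 4 of DU-145 and the 2 of COLO-205 were all among those of OVCAR-3. Over all regions away from protein-coding starts these shares were 38.6%, 17.7% and 9.32%, and 88.2% of regions were in 1 list. The part of the dense OVCAR-3 peaks in this overlap was not tested. The OVCAR-3 peaks joined over 379 kb, from 113 kb upstream to 266 kb downstream of the main start, with 235 peaks over 106546 bp and rank 20 of 22070 clusters. This stretch reaches into *DYM* and *CTIF*, so it is not particular to *SMAD7*. The span held 74.7 peaks per 100 kb against 8.89 in the flanks, and chromosome 18 as a whole was at 0.695 times the median density. The median distal peak there had a fold enrichment of 4.89 and a local background of 4.25 tags, against 5.28 and 3.53 over all OVCAR-3 peaks away from protein-coding starts, and it held 26.0 tags against 24.0. The number depends on the threshold. Peaks with a −log10 q of at least 10 numbered 45 in OVCAR-3, 2 in SKOV-3, 1 in DU-145 and 1 in COLO-205, but among the 14001 strongest peaks of each list there were 5 in OVCAR-3 and 7 in SKOV-3. What part the density of peaks over the whole stretch has in the values of *SMAD7* was not tested.

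**Figure D5:**
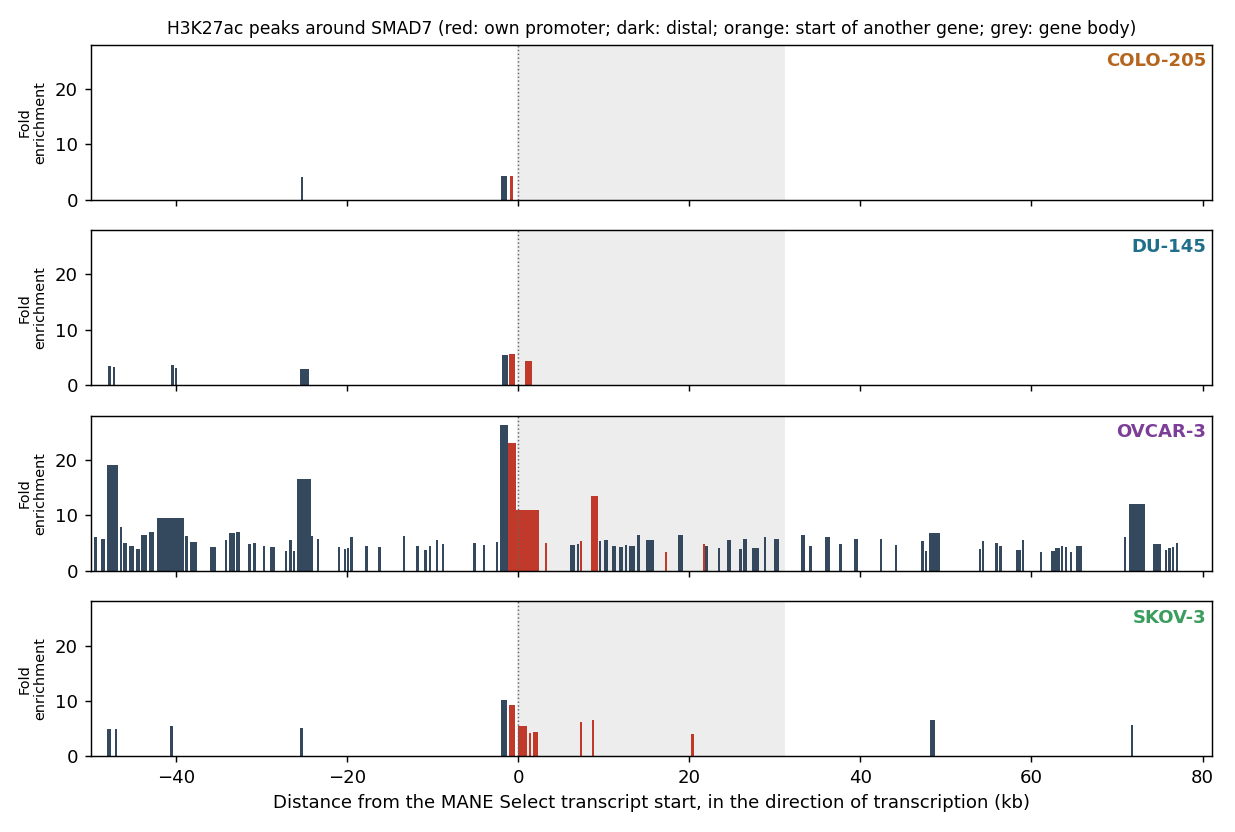
Peaks around *SMAD7* in the 4 lists, as fold enrichment against distance from the main start in kb, with its own promoter peaks in red and distal peaks in dark. The OVCAR-3 panel is filled on all sides of the gene. The tall bars next to 0 recur in the other panels at lower heights.

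For *SMAD3*, peaks with a −log10 q of at least 10 numbered 40 in DU-145, 24 in OVCAR-3, 3 in COLO-205 and 7 in SKOV-3. The 14001 strongest peaks, which are the whole list of SKOV-3, gave 15, 7, 1 and 10 in the same order. Over the 9 genes these 14001 gave 18, 17, 2 and 17 distal peaks, so the high totals of DU-145 and OVCAR-3 over SKOV-3 come from peaks below this rank. COLO-205 stayed low.

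Joined over the lists, the 9 genes had 233 distal regions, of which 83.3% were in 1 list and 2.15% in all 4, beside 88.2% and 0.372% of the 158036 regions away from protein-coding starts over the genome. All 5 regions in 4 lists belong to *SMAD3* and *SMAD7*. Of the 42 promoter regions 52.4% were in 1 list and 9.52% in all 4, beside 55.5% and 13.3% over all genes.

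The distal summits of the 9 genes were also searched for the 5 motifs, beside all windows of the same list away from protein-coding starts. An AP-1 match stood in 4.67% of 107 windows in DU-145 and 5.77% of 156 in OVCAR-3, against 4.54% and 4.23% over all. A SMAD-binding box stood in 13.1% and 10.9%, against 11.4% and 12.2%. An E-box stood in 27.1% and 27.6%, against 35.9% and 36.0%. TEAD matches stood in 3.74% and 1.92%, against 1.92% and 2.11%. The SMAD palindrome was in none of the windows of any list, where at most 0.095% of all such windows hold it. The lists of COLO-205 and SKOV-3 gave 20 and 17 windows, too few for a share to be read.

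Beyond the 9 genes, 58 further genes of the pathway were listed, and 46 of them had a promoter peak in DU-145, 45 in OVCAR-3, 38 in COLO-205 and 31 in SKOV-3. These are 79.3%, 77.6%, 65.5% and 53.4%, each above the share of all genes given above. They describe a list that was written with earlier results of these data known. Among 12 inhibitors and regulators, such as the co-repressors *SKI* and *SKIL* and the ubiquitin ligases *SMURF1* and *SMURF2*, 11, 12, 11 and 10 had a promoter peak in that order of lists. Among the 6 other SMADs the numbers were 6, 6, 5 and 5. *SMAD4*, the common partner of the receptor-activated SMADs, had 4.95 in DU-145, 9.38 in OVCAR-3, 7.10 in SKOV-3 and no peak in COLO-205. It lies on chromosome 18, which in COLO-205 held 0.156 times the median density of peaks. The part of this in the missing peak was not tested. *SMAD9* had no peak in SKOV-3 and between 4.36 and 5.35 in the others.

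Among 10 other receptors, 8, 7, 8 and 6 were marked. *BMPR1B*, a type I receptor for bone morphogenetic proteins, had 33.4 in OVCAR-3, 9.76 in SKOV-3, 2.95 in COLO-205 and no peak in DU-145. *ACVR2B*, a type II activin receptor gene, had 14.8 in OVCAR-3, 4.45 in COLO-205 and 2.92 in DU-145, and *ACVR1C* had 2.35 in DU-145 alone. Among 8 other ligands, 3, 4, 4 and 1 were marked. *INHBB*, which encodes the other activin subunit, had 11.4 in OVCAR-3 alone, *NODAL* 5.17 and *GDF15* 3.56 in COLO-205 alone, and *INHA*, the inhibin alpha subunit gene, 9.03 in OVCAR-3, 4.83 in SKOV-3 and 3.86 in DU-145.

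Genes for latency and activation of the ligand, such as those of the latent TGF-beta binding proteins and the integrins that release it, were marked in 9, 9, 5 and 3 of 10 cases. *ITGB8*, an integrin subunit that activates latent TGF-beta, had 13.3 in OVCAR-3, 4.12 in COLO-205 and 3.06 in DU-145, and *LTBP4* had between 3.75 and 4.91 in these lists. Neither was marked in SKOV-3, where chromosome 7, which holds *ITGB8*, had 0.0836 times the median density of peaks. The part of this in the missing *ITGB8* peak was not tested. Among 12 known target genes, 9, 7, 5 and 6 were marked. The cell cycle inhibitor gene *CDKN2B* had 12.0 in OVCAR-3, 6.12 in DU-145 and 5.57 in COLO-205, *CCN2* had 7.89 in OVCAR-3, 5.88 in SKOV-3 and 3.44 in DU-145, and *CDKN1A* had 4.47 in DU-145 alone. *MMP2*, which encodes a matrix-degrading protease, had no promoter peak in any list, and neither had *ITGB6*, *BMP2* and *ENG*.

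Of these 58 genes, those nearest to each of the 9 in promoter percentile over the 4 lists were *CDKN1A* for *TGFB1*, with a mean difference of 0.799 percentile points, *GDF11* for *TGFB2* (6.83), *ID3* for *TGFB3* (5.07) and *THBS1* for *INHBA* (4.75). For the receptors they were *ITGA5* for *TGFBR1* (3.62), *SMAD6* for *TGFBR2* (4.65) and *BAMBI* for *TGFBR3* (6.06). For the SMADs they were *ACVR1B* for *SMAD3* (3.65) and *SMAD1* for *SMAD7* (2.97). The next in order were *ACVR1C* for *TGFB1*, *LTBP2* for *TGFB2*, *LTBP1* for *TGFB3* and *INHBA*, *SKIL* for *TGFBR1*, *ACVR2A* for *TGFBR2*, *NODAL* for *TGFBR3*, *SMURF1* for *SMAD3* and *TGIF1* for *SMAD7*. Each likeness rests on 4 libraries, with percentiles among all protein-coding genes, not among marked promoters as above, and an unmarked promoter counted as 0. *TGFB1* and *CDKN1A*, both marked in DU-145 alone, are thus alike mainly in being unmarked in the other 3. Their difference cannot be set beside that of pairs marked in all lists.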

How the data were processed

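The labels and methods describe 4 H3K27ac libraries, 1 per line, with reads mapped to hg19 by Bowtie2 2.1.0 and narrow peaks called per library with MACS2 2.1.0.20150603 at a q-value below 0.001, versions as in the submitters' processing notes. The deposited lists hold a score, which is 10 times the −log10 q, a fold enrichment, which is the ratio of the pileup to the background around it, and −log10 p and q-values. The authors' peak caller made them inside each library, so no value is scaled to another library. A merge of peaks closer than 350 bp is described, but closer neighbours remain in the deposited lists, which were used as they are.

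From these values, the whole tag pileup and the local background at each summit were solved from the Poisson p, within 0.001 on the −log10 scale, in at least 99.9% of peaks. The number of tags, the base of the RPM values computed here, was estimated from the lowest background in a list, with 2700000000 genome positions and the narrowest peak as fragment length, both assumed. The recovery was tested on simulated data. Precision is limited by depth, with a median of 24 to 30 tags at a summit. Genes and starts are those of GENCODE 44 lifted to GRCh37, and sequences come from GRCh37, the build of the lists.

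Regions were joined over the lists where peaks overlapped by at least 1 bp, and peaks less than 12.5 kb apart were joined into clusters, a description chosen after seeing the data. Percentiles are among protein-coding genes of the same list. The genes, lists and markers were chosen with earlier results of these data known. All 9 genes are named, with the distal peak of highest −log10 q for each. Of the other pathway genes the text names those with a promoter peak in 1 or 3 lists, at most 4 per group, and the 2 nearest in promoter percentile for each gene. *SKI*, *SKIL*, *SMURF1* and *SMURF2*, the genes marked in no list, the marker genes, and further distal peaks of *SMAD3*, *TGFB2* and *TGFBR3* were named after their values were seen. Alternatives were other thresholds, windows, transcripts and overlaps. The settings without *SMAD3* and *SMAD7* and with the MANE Select start alone, and the promoter peak of highest RPM, were added after seeing the data. Tools were samtools 1.23.1 and Python 3.11.15 with pandas 2.3.3, scipy 1.17.1, numpy 2.4.6 and, for figures, matplotlib 3.10.9. Some genes and 1 distal region of the lists are not reported here.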

Additional observations from a re-analysis of the deposited data

How the results depend on the processing

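With 1 library per line, no replicate could be left out, no test was made, and SKOV-3 has both the fewest estimated tags and the shortest list. No paired analysis was possible because the lines have 1 library each and the results come from no test. Of 102 values recomputed under an alternative, 75 stayed within 1.5 times the reported one and 27 did not. With a −log10 q of at least 10, genes with a promoter peak fell to 3 of 9 in COLO-205 and 2 of 9 in SKOV-3, where 31.8% and 22.3% of all genes kept one, distal peaks to 50 in DU-145, 88 in OVCAR-3, 5 in COLO-205 and 9 in SKOV-3, and the covered share of the span from 3.11% to 1.87% (DU-145), 0.350% to 0.119% (COLO-205) and 0.384% to 0.249% (SKOV-3). With the 14001 strongest peaks of each list, COLO-205 had 3 genes with a promoter peak beside 21.9% of all genes, DU-145, OVCAR-3 and COLO-205 had 18, 17 and 2 distal peaks, and the covered share was 0.782%, 1.06% and 0.0316% in that order, against 4.03% in OVCAR-3 with all peaks. Fewer peaks are left by construction in both settings. Merging peaks less than 350 bp apart left DU-145 with 68 distal peaks and OVCAR-3 with 100. Distal peaks within 20 kb numbered 97 in OVCAR-3 and 90 in DU-145, and within 100 kb 27 in SKOV-3. Those within 20 kb covered 3.35% of the span in OVCAR-3 and 4.00% in DU-145, so the order of these lists turned. Without *SMAD3* and *SMAD7* they were 27 in DU-145, 31 in OVCAR-3, 6 in COLO-205 and 0 in SKOV-3. The strongest promoter value was in OVCAR-3 for 8 genes and in DU-145 for 1 by fold enrichment, for 5 and 4 by the RPM of that same peak, and for 7 and 2 by the highest RPM over all promoter peaks of a gene. No share over all genes stands beside these numbers, so they cannot be read as particular to the 9 genes. The median marked promoter was also highest in OVCAR-3, with a fold enrichment of 7.45 against 4.77 in DU-145, and 2.49 against 1.89 RPM. In SKOV-3 it had 5.29 and 1.74 RPM, and in COLO-205 4.52 and 1.44 RPM.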
